A study of Mus musculus with 4 samples.

Results

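The 10 genes described here encode 7 laminin chains outside the hemidesmosomal laminin (Lama1, Lama2, Lama4, Lama5, Lamb1, Lamb2 and Lamc1), the nidogens (Nid1 and Nid2) and perlecan (Hspg2). They were taken by name, by matching the table's Ensembl identifiers to GENCODE M21, and all 10 were found among 54393 gene identifiers. All 10 passed the filter on low counts. Messenger RNA was measured by RNA sequencing in 4 mouse mammary libraries, 1 from wild-type (WT) and 1 from ΔNp63 conditional knockout (cKO) glands at each of 10 days and 5 weeks after tamoxifen (1.5 mg/ml) given at puberty, 4 weeks of age. ΔNp63 is the N-terminally truncated p63 transcription factor of basal epithelial cells, and the labels name iK14-Cre; DNp63 f/f mice, in which an inducible Cre follows the keratin 14 promoter of basal cells. Tamoxifen is given in the labels of both genotypes, and the alleles carried by the WT animals are not stated. A sort removed cells bearing CD45, CD31 or Ter119 (found on leukocytes, endothelium and erythroid cells), and 100000 of the other cells entered each library. Gland ages in the labels are 5 and 35 weeks. A 35-week gland cannot result from tamoxifen at 4 weeks and collection 5 weeks later, so the age at the later time point is uncertain and only the time label was used. The labels do not state whether separate animals were used. No condition had a replicate, so p-values concern these libraries only and do not measure the spread between replicates or animals.

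Laminins are assembled from an α, a β and a γ chain and polymerise on the cell surface into the first layer of a basement membrane. Nidogens bridge the γ1 chain, the product of Lamc1, to the type IV collagen network. Perlecan, a large heparan sulfate proteoglycan, binds laminin, nidogen and collagen and holds growth factors. In the mammary gland this sheet surrounds the basal (myoepithelial) layer and borders the stroma, and contact with laminin is known to support the polarity of luminal cells and their milk protein expression. Fibroblasts, endothelium, pericytes and adipocytes also make basement membrane proteins.

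WT at 5 weeks was the deepest library, with 79122250 counts, and the other libraries held between 31714181 and 34230566. The part of this depth in the results was not tested. Each of the 10 genes had at least 1456 counts in every library. Counting error was therefore small beside the larger differences between libraries. It was not small beside near-level pairs, such as Lama4 at 10 days (6814 counts in WT and 6384 in cKO, log2 ratio 0.023). Positions below are of the whole gene in GRCm38, from GENCODE M21, and levels are CPM, counts scaled to library size with TMM factors. Trp63, the targeted gene, had 46.8 CPM (WT) and 12.8 CPM (cKO) at 10 days, and 160.5 and 25.5 CPM at 5 weeks. The labelled epithelial tissue also held stroma. The 12 fibroblast markers, none at 0, summed to between 32572 and 40053 CPM in WT and between 39457 and 61721 CPM in cKO. Markers of the sorted-out cells were low (Pecam1 30.9 to 55.9 CPM, Ptprc 7.26 to 30.7 CPM). The 10 leukocyte markers summed to 73.6 and 52.8 CPM in WT and to 113 and 138 CPM in cKO, at 10 days and 5 weeks, with 10 of 10 higher in cKO at 5 weeks, and their part in the results was not tested. WT at 5 weeks stood apart, with 12 basal markers summing to 18702 CPM against 2024 to 5822 CPM in the other libraries. Krt5 (7826 CPM) and Krt14 (6510 CPM) carried most of that sum. At 5 weeks 8 of the 12 were lower in cKO than in WT and 4 were higher. Those 4 (Oxtr, Mylk, Acta2 and Cnn1) were also lower in WT at 5 weeks than in WT at 10 days. In these bulk samples fewer cells of a type and less RNA per cell cannot be told apart.

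None of the 10 genes passed the genotype test, and at 5 weeks 9 of them were higher in the cKO library than in the WT library. The test was edgeR's quasi-likelihood F test with a term for time point, adjusted by Benjamini-Hochberg over 18917 genes with a threshold of 0.05, and it called 0.0581% of all genes. An unadjusted p under 0.05 was reached by 1 of the 10, Nid2, against 11.6% of all tested genes. The median log2 fold change (cKO over WT) of the 10 was 0.34, and that of all tested genes was -0.01. At 10 days 6 of the 10 lay above WT and 4 below, with a median log2 ratio of 0.04, where 49.8% of all tested genes lay below. With library totals in place of TMM factors the Lama4 ratio turned from 0.023 to -0.021 and the split at 10 days was 5 and 5. At 5 weeks 9 lay above and 1 below, with a median of 0.72, where 49.1% of all tested genes lay above WT and their median was -0.01. Each of these ratios compares 1 library with 1 library and has no replicate check.

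**Figure D1:**
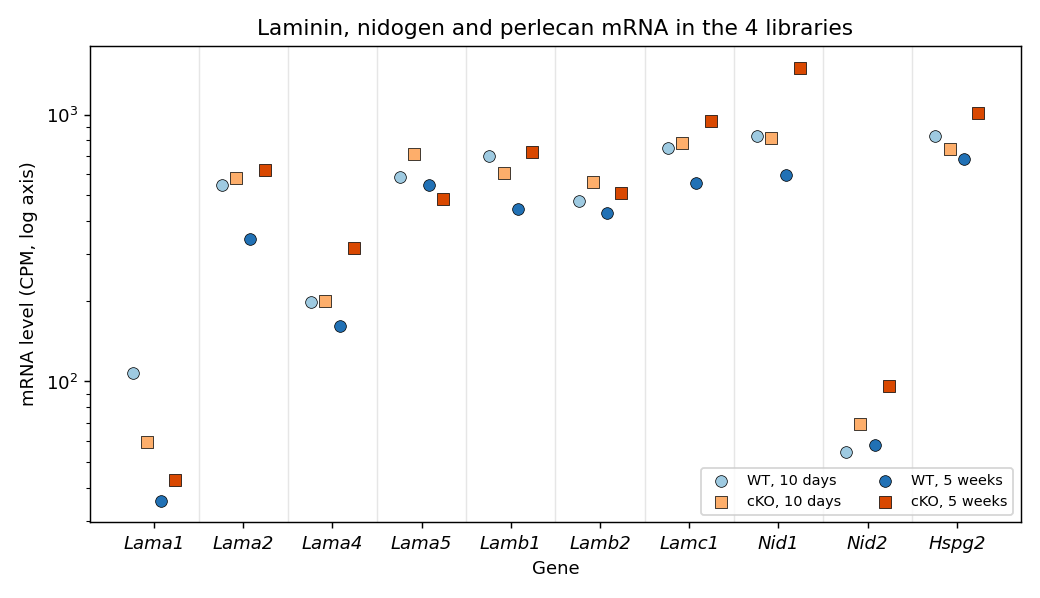
Levels of the 10 genes in CPM on a log axis, with 1 point per library (circles WT, squares cKO, pale 10 days, dark 5 weeks). WT at 5 weeks is the lowest library for 8 genes and cKO at 5 weeks the highest for 7.

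Among the α chains, which set the receptor a laminin binds, Lama5 was the most abundant per length of merged exons and had the smallest fitted genotype difference. Lama5 (ENSMUSG00000015647.9, chromosome 2, 180176373 to 180225859), the α chain most widespread in adult epithelia, was at 584 CPM in the WT and 709 CPM in the cKO library at 10 days, and at 545 and 482 CPM at 5 weeks. Its genotypes overlapped, and cKO was the higher library at 10 days and the lower one at 5 weeks. The log2 fold change was 0.05 (SE 0.281, 95% interval -0.65 to 0.75, n = 2 per genotype, edgeR adjusted p = 0.964), and it ran from -0.24 to 0.31 when 1 library was left out.

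Lama2 (ENSMUSG00000019899.16, chromosome 10, 26980036 to 27619758) encodes the α chain of muscle and peripheral nerve laminin, whose loss causes a congenital muscular dystrophy. It was at 544 CPM in the WT and 576 CPM in the cKO library at 10 days, and at 342 and 619 CPM at 5 weeks. Lama4 (ENSMUSG00000019846.11, chromosome 10, 38965515 to 39110188), the α chain of vascular and adipocyte basement membranes, was at 198 and 201 CPM at 10 days and at 162 and 316 CPM at 5 weeks. The cKO libraries of Lama2 lay above its WT libraries without overlap. Those of Lama4 did so with TMM factors but not with library totals, and for both genes the genotypes were nearly level at 10 days. The log2 fold change was 0.47 for Lama2 (SE 0.307, 95% interval -0.30 to 1.24, edgeR adjusted p = 0.619). For Lama4 it was 0.50 (SE 0.299, 95% interval -0.26 to 1.25, edgeR adjusted p = 0.588). In fits with 1 library left out and no time term, Lama2 ran from 0.14 (without WT at 5 weeks) to 0.80 (without WT at 10 days). Lama4 was lowest, at 0.14, when the 5-week cKO library was left out and highest, at 0.80, when the 10-day cKO library was.

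Lama1 (ENSMUSG00000032796.8, chromosome 17, 67697259 to 67822647), the α chain of the first embryonic basement membranes, had the widest range of the 10 and another order of libraries. It was at 108 CPM in the WT and 59.2 CPM in the cKO library at 10 days, and at 35.8 and 42.9 CPM at 5 weeks. WT at 10 days was the high library, and both libraries at 5 weeks were below both at 10 days. For genotype the log2 fold change was -0.30 (SE 0.321, 95% interval -1.14 to 0.53, edgeR adjusted p = 0.776), and it was 0.51 without the WT library at 10 days and -1.08 without the WT library at 5 weeks.

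Levels of the 2 β chain genes ranged 1.64-fold (Lamb1) and 1.30-fold (Lamb2) over the 4 libraries. Lamb1 (ENSMUSG00000002900.16, chromosome 12, 31265234 to 31329644), the β1 chain shared by most laminins of embryo and stroma, was at 699 CPM in the WT and 606 CPM in the cKO library at 10 days, and at 444 and 726 CPM at 5 weeks. Its genotypes overlapped, with the lowest level in WT at 5 weeks. Lamb2 (ENSMUSG00000052911.9, chromosome 9, 108479736 to 108490530), the β2 chain known from the kidney glomerulus and the neuromuscular junction, was at 476 and 558 CPM at 10 days and at 429 and 509 CPM at 5 weeks. Here the 2 cKO libraries lay above the 2 WT libraries, by a log2 ratio of 0.23 at 10 days and 0.25 at 5 weeks. The fitted log2 fold changes were 0.25 for Lamb1 (SE 0.333, 95% interval -0.58 to 1.08, edgeR adjusted p = 0.822) and 0.24 for Lamb2 (SE 0.254, 95% interval -0.40 to 0.87, edgeR adjusted p = 0.773). Leaving out the WT library at 5 weeks turned the Lamb1 value to -0.068, and leaving out the WT library at 10 days gave 0.59.

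Lamc1 (ENSMUSG00000026478.14, chromosome 1, 153218922 to 153332786), the γ1 chain that joins with any of the α chains above and carries the nidogen site, was at 749 CPM in the WT and 783 CPM in the cKO library at 10 days. At 5 weeks it was at 553 and 945 CPM. The genotypes did not overlap, although the gap at 10 days was small (log2 ratio 0.06, against 0.77 at 5 weeks). The log2 fold change was 0.42 (SE 0.319, 95% interval -0.38 to 1.21, edgeR adjusted p = 0.674), and it was 0.21 without the WT library at 5 weeks and 0.64 without that at 10 days.

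Nid1 (ENSMUSG00000005397.8, chromosome 13, 13437551 to 13512269), the major nidogen, showed the greatest 5-week ratio of the 10 genes. It was at 829 CPM in the WT and 815 CPM in the cKO library at 10 days, and at 596 and 1499.7 CPM at 5 weeks. The cKO library at 5 weeks lay far above the other 3, and the genotypes overlapped. Its log2 ratio was -0.025 at the first time point and 1.33 at the second, and Nid1 alone of the 10 reached a ratio of 2-fold at 5 weeks, as 7.78% of all tested genes did. Over both time points the log2 fold change was 0.65 (SE 0.423, 95% interval -0.41 to 1.72, edgeR adjusted p = 0.615). Without the cKO library at 5 weeks it was 0.17, without that at 10 days 1.06, and without the WT library at 10 days 0.96.

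Nid2 (ENSMUSG00000021806.4, chromosome 14, 19751265 to 19811787), the scarcer nidogen, was higher in cKO at both time points, at 54.3 CPM in the WT and 69.3 CPM in the cKO library at 10 days and at 57.7 and 96.0 CPM at 5 weeks. The genotypes did not overlap. The log2 fold change was 0.54 (SE 0.205, 95% interval 0.03 to 1.06), with an unadjusted p of 0.0407 and an edgeR adjusted p of 0.409, which missed the threshold. It lay between 0.29 and 0.76 when any 1 library was left out. Rtraf overlaps Nid2 on the opposite strand over 437 exonic bases, and the strand setting of the counting was not given in the sources used here. Rtraf had 1941 and 1722 counts at 10 days and 4346 and 1552 at 5 weeks in WT and cKO, against 1870 and 2203, and 4435 and 3258, for Nid2. Antisense genes share 631 exonic bases with Lama2 and 143 with Nid1, and had at most 1 and 11 counts in a library.

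Hspg2 (ENSMUSG00000028763.17, chromosome 4, 137468769 to 137570630), which encodes perlecan, was at 833 CPM in the WT and 740.5 CPM in the cKO library at 10 days, and at 680.2 and 1012 CPM at 5 weeks. The genotypes overlapped, with the cKO library the lower at 10 days and the higher at 5 weeks. The log2 fold change was 0.20 (SE 0.326, 95% interval -0.61 to 1.02, edgeR adjusted p = 0.859), and it was -0.054 without the cKO library at 5 weeks and 0.40 without that at 10 days. Altogether the genotypes did not overlap for 5 of the 10 genes (Lama2, Lama4, Lamb2, Lamc1 and Nid2, all higher in cKO), where the same held for 45.9% of all tested genes in either direction and for 22.6% with cKO higher. With library totals the count was 4, without Lama4. The sign of the ratio differed between time points for the other 5. Lama1, Lamb1, Nid1 and Hspg2 were lower in cKO at 10 days and higher at 5 weeks, as were 19.4% of all tested genes, and Lama5 did the opposite, as did 20.4%.

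**Figure D2:**
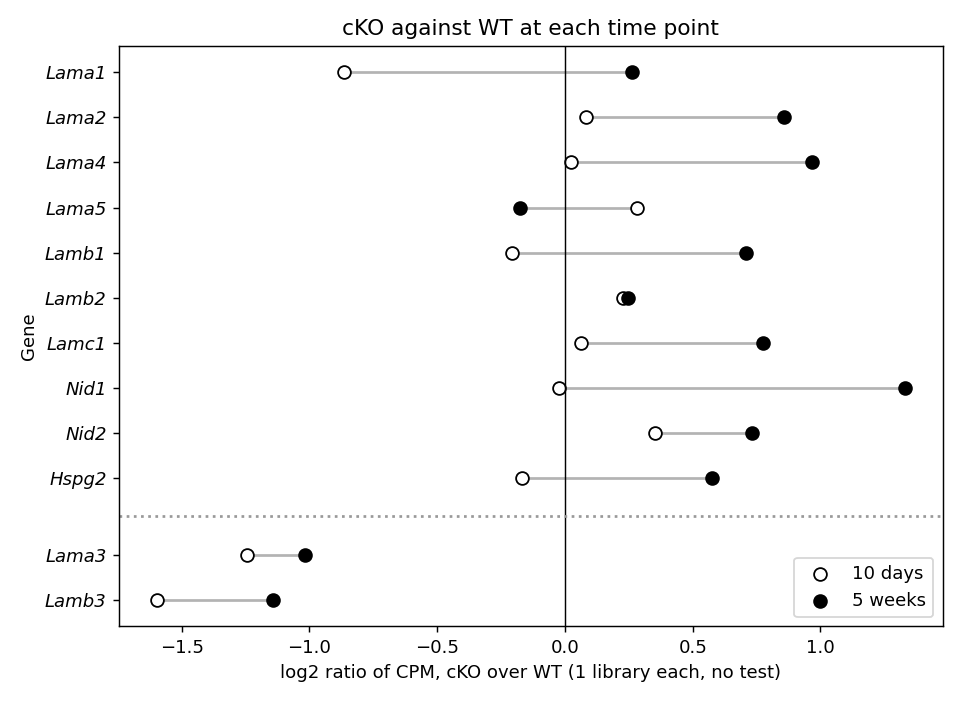
Log2 ratio of cKO over WT for each gene at 10 days (open) and 5 weeks (filled), from 1 library of each genotype, with the laminin-332 chain genes Lama3 and Lamb3 below the dotted line. Of the 10 genes above the line, 9 are above 0 at 5 weeks and the range at 10 days runs from -0.86 for Lama1 to 0.35 for Nid2.

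Time point was compared within the same fit, as 5 weeks over 10 days with genotype held constant. None of the 10 genes passed, where 0.0634% of all tested genes did, and 1 of the 10 had an unadjusted p under 0.05, against 5.35% of all. This was Lama1, with a log2 fold change of -1.03 (SE 0.324, 95% interval -1.87 to -0.19, n = 2 per time point, unadjusted p = 0.0256, edgeR adjusted p = 0.789). Its adjusted p was 0.00344 when genes were kept down to 1 count, a fit that called 638 genes for time where the filtered fit called 12. In WT 9 of the 10 genes were lower at 5 weeks than at 10 days, Nid2 being the exception, as were 45.5% of all tested genes. In cKO 7 of the 10 were higher at 5 weeks, against 50.3% of all tested genes. The 3 that were lower in cKO at 5 weeks were Lama1, Lama5 and Lamb2. For 2 of the 10, Lama1 and Lama5, both libraries at 5 weeks lay below both at 10 days, as for 13.5% of all tested genes. WT at 5 weeks was the lowest library for 8 of the 10 genes (23.6% of all tested genes) and cKO at 5 weeks the highest for 7 (27.4%).

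Levels of different genes were compared as CPM per kilobase of merged exons, as a mean over the 4 libraries with the SD between them (n = 4). Nid1 was highest at 134.7 ± 56.4, followed by Lamc1 at 91.6 ± 19.5, Lamb2 at 81.1 ± 8.93, Lamb1 at 62.4 ± 12.8 and Hspg2 at 57.1 ± 10.1. Then came Lama5 at 50.9 ± 8.42, Lama2 at 31.9 ± 7.52, Lama4 at 18.2 ± 5.57, Nid2 at 13.4 ± 3.65 and Lama1 at 6.34 ± 3.35. Neighbours in this order differed by less than the larger of their SDs, except Lamb2 and Lamb1, Lama5 and Lama2, Lama2 and Lama4, and Nid2 and Lama1. The order depends on the gene model, because Lama2, Lama4 and Lamb1 have merged exons much longer than their longest transcript. On the longest transcript's length Lamb1 was second at 107.0 CPM per kilobase and Lama2 (54.2) came level with Lama5 (50.9).

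The makeup of the laminin chain mRNAs was described as shares of each chain family per length. Lama5 made up 40.6% of α chain mRNA in WT and 49.3% in cKO at 10 days, and 48.1% and 36.0% at 5 weeks. Lama4 was at 13.0% and 13.2% at 10 days and at 13.5% and 22.3% at 5 weeks, so that cKO at 5 weeks stood apart. Lama3, the α chain of laminin-332, separated the genotypes, at 11.1% and 13.7% in the WT libraries and 4.69% and 5.70% in the cKO libraries. Lamb2 made up 43.0% of β chain mRNA in WT and 56.0% in cKO at 10 days, and 50.7% and 49.9% at 5 weeks. On the longest transcript's length Lamb2 made up 33.7% and 45.3% at 10 days and 41.1% and 39.2% at 5 weeks, below Lamb1 in every library, and Lama4 19.7% and 19.8%, then 20.9% and 30.7%. On that scale Lama5 was at 30.8% and 37.1%, then 37.4% and 24.8%, and Lama3 at 8.60% and 10.8% in WT and 3.60% and 4.01% in cKO. With only 2 libraries per genotype these shares were not tested.

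**Figure D3:**
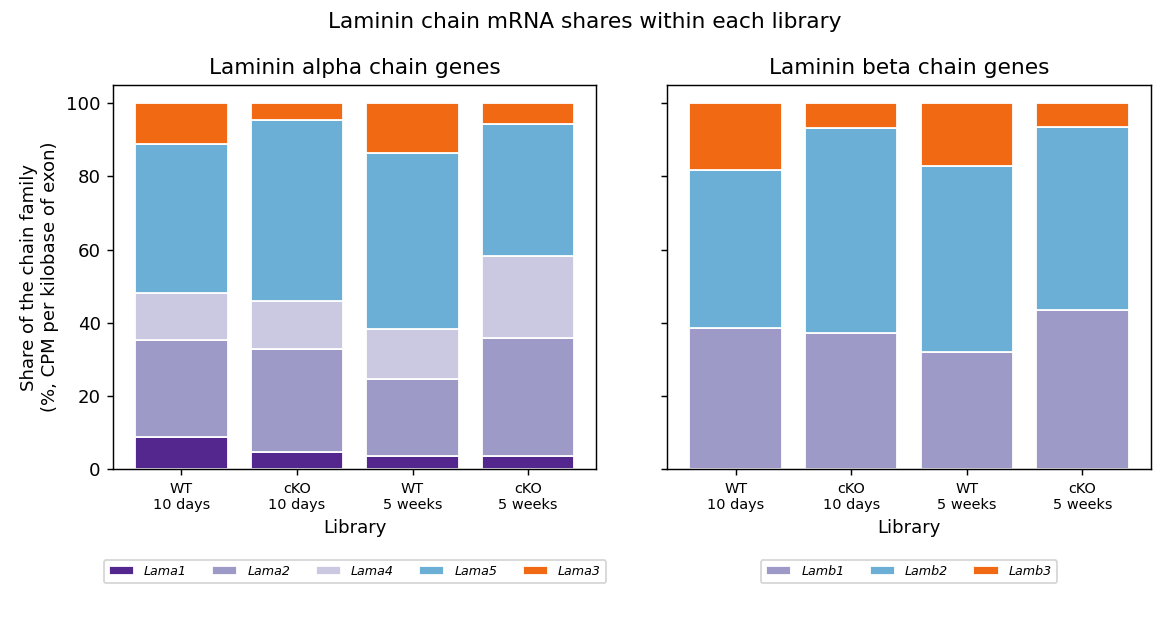
Stacked shares, in % of CPM per kilobase of merged exons, of the α and β laminin chain genes in each library. Lama3 and Lamb3, chain genes of laminin-332 (orange), take less of the bars in both cKO libraries, with Lama3 at 4.69% and 5.70% against 11.1% and 13.7% in WT.

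Within the nidogens Nid1 made up between 88.5% and 92.1% of the mRNA per length. Nid1 per Lamc1, on the same scale, was 1.32 in WT and 1.24 in cKO at 10 days, and 1.28 and 1.89 at 5 weeks, so the cKO library at 5 weeks was again the one apart. Hspg2 per Lamc1 stayed between 0.547 and 0.711.

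Lama3 and Lamb3, chain genes of laminin-332, the laminin that anchors basal cells through hemidesmosomes, lay below WT in both cKO libraries. Lama3 was at 151 CPM in WT and 63.6 in cKO at 10 days, and at 146 and 72.1 at 5 weeks. Lamb3 was at 220.4 and 72.8, and at 158 and 71.4. Neither passed over all genes. The log2 fold changes were -1.13 for Lama3 (edgeR adjusted p = 0.215) and -1.37 for Lamb3 (edgeR adjusted p = 0.194). Lamc3, the γ3 chain gene, which belongs neither to laminin-332 nor to the 10 genes, was at 181 and 40.5 CPM at 10 days and at 48.7 and 63.5 CPM at 5 weeks, with WT at 10 days the high library (log2 fold change -0.89, edgeR adjusted p = 0.745). It was chosen after its values were seen. The difference between these chains and the 10 genes was not tested.

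Of 23 other basement membrane genes, among them the type IV collagens and agrin, 0 passed and the median log2 fold change was 0.00. At an unadjusted edgeR p under 0.05, 3 were lower and 0 higher in cKO, where 11.6% of all tested genes were under it. These 3, chosen after their values were seen, were Col4a6 (log2 fold change -0.73), Agrn (-0.69) and Fras1 (-0.95). Each of them was below WT at both time points. The log2 ratios of all 23 genes had a median of -0.69 at 10 days and of 0.42 at 5 weeks. Col4a1, which encodes the main network-forming collagen chain, was at 2334 CPM in the WT and 1635 CPM in the cKO library at 10 days, and at 1225 and 1995 CPM at 5 weeks. Sparc, a collagen-binding matrix protein, was at 3097 and 1526 CPM and at 1793 and 3947 CPM. For both genes cKO was the lower library at 10 days and the higher at 5 weeks, as for Lamb1, Nid1 and Hspg2.

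Among 15 laminin and perlecan receptor genes 0 passed over all genes, 5 were lower and 3 higher in cKO at an unadjusted p under 0.05 (11.6% of all tested genes were under it), and the median log2 fold change was -0.10. The named receptors include Itgb1, the β1 integrin subunit shared by most laminin receptors, at 441 CPM in the WT and 399 CPM in the cKO library at 10 days, and at 409.8 and 496 CPM at 5 weeks. Sdc4, a heparan sulfate syndecan, was at 859 and 1222 CPM and at 1196 and 891 CPM. Itgb4, the β4 integrin subunit of hemidesmosomes, was chosen after its values were seen. It was at 179 and 104 CPM at 10 days and at 395 and 91.2 CPM at 5 weeks, so both cKO libraries lay below both WT libraries (log2 fold change -1.45, edgeR adjusted p = 0.325).

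The summed fibroblast markers ranked the 4 libraries in the same order as Lamb1, Nid1 and Hspg2 did. The 10 genes together summed to 5075 CPM in the WT and 5118 CPM in the cKO library at 10 days, and to 3844 and 6249 CPM at 5 weeks. The 12 fibroblast markers summed to 40053 and 39457 CPM at 10 days and to 32572 and 61721 CPM at 5 weeks, with 11 of 12 higher in cKO at 5 weeks and 8 of 12 at 10 days. The near-level sums at 10 days held markers that differed in opposite directions, such as Col3a1 (13514 CPM in WT, 7365 in cKO) and Gsn (4235 and 13620 CPM). In both sums WT at 5 weeks was the lowest library and cKO at 5 weeks the highest. Per 1000 CPM of fibroblast markers, the 10 genes held 126.7 and 129.7 CPM at 10 days and 118.0 and 101.2 CPM at 5 weeks. The part of fibroblasts in the differences above was not tested.

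Lama4 followed the fibroblast sum most closely of the 10 genes. Per 1000 CPM of fibroblast markers it was at 4.94 and 5.09 CPM at 10 days and at 4.96 and 5.13 CPM at 5 weeks, a range of 1.04-fold where its own level ranged 1.96-fold. This holds for the sum, and the single markers did not share 1 pattern. Nid1 was at 20.70 and 20.65 CPM and at 18.3 and 24.3 CPM per 1000 CPM of those markers, and Lamc1 at 18.7 and 19.8 CPM and at 17.0 and 15.3 CPM. Lama5 did not follow that sum, with 14.6 and 18.0 CPM and then 16.7 and 7.81 CPM. The 12 luminal epithelial markers summed to between 8067 and 10331 CPM. Per 1000 CPM of them Lama5 was at 61.2 and 68.7 CPM at 10 days and at 62.9 and 59.7 CPM at 5 weeks. This was a range of 1.15-fold where the level of Lama5 itself ranged 1.47-fold. Single luminal markers did not share 1 pattern either. Each gene was set beside every marker list, and the pairs given here were chosen after their values were seen.

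Other sources of basement membrane were measured too. Endothelial markers (12 of 12 detected) summed to 235 and 315 CPM in WT and to 328 and 473 CPM in cKO, at 10 days and 5 weeks, and 12 of 12 were higher in cKO at 5 weeks. Pericyte and vascular smooth muscle markers (10 genes) summed to between 958 and 1075 CPM in WT and to 1020 and 1131 CPM in cKO. Myh11, a gene also of contractile basal cells, held 674 CPM of the 1075 CPM in WT at 10 days. Of these markers 9 of 10 were higher in cKO at 10 days and 7 of 10 at 5 weeks, with a median log2 fold change of 0.55. Adipocyte markers (10 genes) summed to 563 and 568 CPM in WT and to 1522 and 1363 CPM in cKO, with Adipoq at 23.7 CPM in cKO at 10 days and at most 0.47 CPM elsewhere. Lpl, the lipoprotein lipase gene, and Fabp4 carried most of the sum at 5 weeks in cKO (1078 and 241 CPM). The single markers named with these sums (Col3a1, Gsn, Myh11, Lpl and Fabp4) were chosen after their values were seen. The part of these cell types in the results was not tested.

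**Figure D4:**
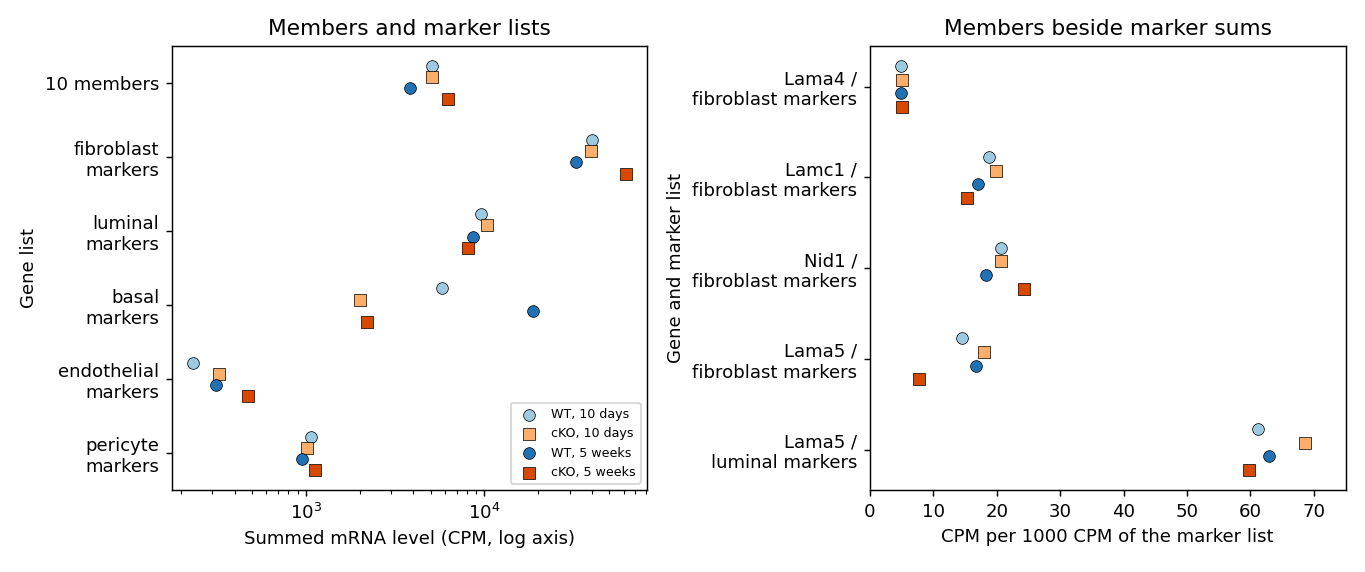
Left, summed CPM (log axis) of the 10 genes and of 5 marker lists in each library. Right, CPM of single genes per 1000 CPM of a marker list, where Lama4 lies between 4.94 and 5.13 on fibroblast markers and Lama5 between 59.7 and 68.7 on luminal markers.

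Genes nearest to each of the 10 were ranked by Euclidean distance between log2 CPM values centred over the 4 libraries, among 7913 other genes of at least 20 CPM. With 4 libraries this is a description only. Nearest to Lama2 were Rhoj (distance 0.0342), Pdgfra (0.0740), a gene of the fibroblast list, and Abca8b (0.0977). Those nearest to Lama4 were Zbed6 (0.0777), C1qtnf1 (0.0958) and Serpinb9 (0.107), none of them in the fibroblast list. Nearest to Lama5 were Scnn1b (0.0278), Acadm (0.0367) and Krt18 (0.0387), a keratin of the luminal list. Lama1 lay nearest to Cxcl15 (0.144), farther off than the neighbours of those genes. Nid1 had no close neighbour, with Sh3bgrl first at 0.159, whereas Lamb2 had Usp25 at 0.0116 and Hspg2 had Fkbp9 at 0.0158. First for Lamc1 was Gk5 (0.0253), for Lamb1 Slit2 (0.0394) and for Nid2 mt-Rnr1 (0.0418).

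Bases upstream of the start are shown for the β chain pair, whose levels ranged differently, and for Lama5 and Nid1, which had the lowest and highest 5-week ratios. RefSeq promoter windows (GRCm38.p6) were at hand for 6 of the 10 genes. Each sequence runs 5′ to 3′ on the gene's strand and ends before the first base annotated as transcribed in GENCODE M21, so lengths differ. Capitals mark GC boxes (GGGCGG on either strand, known as Sp1-type sites) and the p53-family half-site by its standard consensus, the motif class that p63 binds.
Lamb1: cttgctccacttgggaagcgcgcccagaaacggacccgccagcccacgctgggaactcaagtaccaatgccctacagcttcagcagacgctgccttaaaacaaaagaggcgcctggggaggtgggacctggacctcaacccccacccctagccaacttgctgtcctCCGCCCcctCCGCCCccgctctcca
Lamb2: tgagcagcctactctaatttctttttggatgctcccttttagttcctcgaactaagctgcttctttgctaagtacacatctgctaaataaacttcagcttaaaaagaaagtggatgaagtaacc
Lama5: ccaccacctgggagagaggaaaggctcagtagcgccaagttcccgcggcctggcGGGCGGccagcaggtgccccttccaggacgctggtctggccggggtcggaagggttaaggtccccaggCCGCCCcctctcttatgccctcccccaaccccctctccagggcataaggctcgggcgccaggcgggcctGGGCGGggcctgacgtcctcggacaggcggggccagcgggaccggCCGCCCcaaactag
Nid1: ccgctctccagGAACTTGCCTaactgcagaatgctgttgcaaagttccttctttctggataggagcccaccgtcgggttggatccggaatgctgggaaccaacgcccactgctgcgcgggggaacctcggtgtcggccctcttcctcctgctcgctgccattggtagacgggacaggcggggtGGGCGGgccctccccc

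The Lamb1 stretch (chr12:31265043-31265233, plus strand, 191 bases) had 63.9% G and C and 2 GC boxes, a motif that 23.1% of 32851 promoter windows hold in the matching 191 bases. The Lamb2 stretch (chr9:108479612-108479735, plus strand, 124 bases) had 37.9% G and C and 0 GC boxes (13.3% of windows hold one). Lama5 (chr2:180225860-180226109, minus strand, 250 bases) had 72.4% and 4 GC boxes (32.7%). Nid1 (chr13:13437352-13437550, plus strand, 199 bases) had 63.8%, 1 GC box (24.4%) and 1 p53-family half-site, GAACTTGCCT, which 5.80% of windows hold in that length. The other 3 stretches held 0 half-sites. No 2 marked motifs overlapped, and a match describes the letters only.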

How the data were processed

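RNA-seq was measured in 4 libraries. The authors deposited estimated counts per gene as whole numbers. Per the submitters' processing notes, Salmon and GRCm38 were used in a role and version not listed there; annotation and strand setting are likewise not given here. All 54393 identifiers matched GENCODE M21, and 0 rows lacked a gene name. Genes were filtered with filterByExpr (minimum count 10), leaving 18917 genes with 99.9% of counts. With TMM factors, edgeR 4.0.16 in R 4.3.3 fitted terms for time point and genotype, leaving 1 residual degree of freedom. With 1 library per genotype and time point, that residual is the change of the genotype difference between time points. No condition had a replicate, so the SEs and intervals do not measure spread between replicates. Each SE is the size of the log2 fold change over the square root of F. Ratios of libraries within each time point are differences of log2 CPM (prior count 2). The fit was checked on simulated counts. Members, gene lists and tests were chosen with earlier results of these data known. All 10 members are named, with the top genes of each list by mean CPM or those that passed. Of the list symbols, 1 was not matched. No replicate numbers are shared in the labels, and the time term serves as the block. Alternatives were other scalings, filters and tools, DESeq2 1.42.0 and limma-voom 3.58.1 among them, and leaving out each library.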

Additional observations from a re-analysis of the deposited data

Results flagged for a closer look

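Of the 10 genes, 5 had log2 ratios of cKO over WT with opposite signs at 10 days and 5 weeks, and the difference between time points was not tested, since each ratio rests on 1 library per genotype. Lama1 was at -0.86 and then 0.26, Lamb1 at -0.21 and then 0.71, Nid1 at -0.025 and then 1.33, and Hspg2 at -0.17 and then 0.57. Lama5 went the other way, from 0.28 to -0.18. Among all tested genes 19.4% changed sign in the direction of the first 4 and 20.4% in that of Lama5. With library totals in place of TMM factors Lama4 also had opposite signs.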

How the results depend on the processing

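The count of genes called for genotype (11) was 5 with DESeq2's size factors, 3 with upper quartile factors, 1235 with no filter beyond 1 count, 512 in DESeq2, 20 in limma-voom and 0 with the time term, the replicate block, dropped (2182 at an unadjusted p under 0.05), and ran from 0 to 61 without a library. For time (12) it was 638 with no filter beyond 1 count, 192 in DESeq2, 37 in limma-voom and 1 with the genotype block dropped, and ran from 0 to 19 without a library. None of the 10 genes was called for genotype in any of these 11 other fits, where the lowest adjusted p of any was 0.226, and Lama1 was called for time only with no filter. With all 4 libraries kept, the 70 genotype values and 70 time values kept their signs. Without a library, genotype values changed sign for Lama1 (-1.08 to 0.51), Lama5 (-0.24 to 0.31), Lamb1 (-0.068 to 0.59) and Hspg2 (-0.054 to 0.40). Time values did so for Lama2 (-0.72 to 0.15), Lama4 (-0.32 to 0.67), Lamb1 (-0.57 to 0.16), Lamc1 (-0.48 to 0.30), Nid1 (-0.48 to 0.87), Nid2 (-0.11 to 0.64) and Hspg2 (-0.23 to 0.37). Fits without a library hold no second term, and the cause of these shifts was not tested. Ratios within a time point moved by at most 0.044 under another prior count or scaling. With library totals in place of TMM factors this turned the sign of Lama4 at 10 days (0.023 to -0.021), so that 4 genes in place of 5 had genotypes without overlap and 6 in place of 5 had opposite signs at the time points.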

Other observations

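Enzymes that modify the laminin receptor dystroglycan and the heparan sulfate chains of perlecan were measured in the same libraries. Of 12 dystroglycan glycosylation genes 11 were matched and tested, 0 passed over all genes for genotype and 0 had an unadjusted p under 0.05 in edgeR, and the median log2 fold change was 0.00. Their sum was between 280.2 and 302 CPM in the 4 libraries. Pomgnt1, the highest of them by mean CPM, was at 63.8 CPM in the WT and 72.2 CPM in the cKO library at 10 days, and at 81.8 and 66.1 CPM at 5 weeks.

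Of 18 heparan sulfate genes 0 passed, and 1 was lower and 1 higher at an unadjusted p under 0.05, near the 11.6% of all tested genes, with a median log2 fold change of 0.03. Ndst1, a sulfotransferase of chain assembly, was at 283 CPM in the WT and 195 CPM in the cKO library at 10 days, and at 204 and 203 CPM at 5 weeks. The 2 genes under 0.05, chosen after their values were seen, were Hs6st1, the 6-O-sulfotransferase, at 112 and 63.9 CPM and at 103 and 53.8 CPM (log2 fold change -0.87, edgeR adjusted p = 0.247), and Hpse, the heparan sulfate-cleaving heparanase, at 7.52 and 17.7 CPM and at 9.88 and 14.8 CPM (log2 fold change 0.90, edgeR adjusted p = 0.375).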
